A study of Mus musculus with 12 samples.

Results

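The genes described here are the machinery of autophagy and mitophagy: 35 named mouse genes that cover the start of autophagosome formation, the 2 ubiquitin-like conjugation systems, the cargo receptors, the transcription factor TFEB and the receptors of mitophagy. They were chosen by name. Each gene was read from 1 probe, the one of its symbol with the highest mean over the 12 arrays of the non-normalized table. Of the 35 genes, 31 had a probe in the table used here, which names 16593 genes, and 30 had a probe bright enough to be tested, of 13708 such genes. Pik3r4, Atg9a, Optn and Park2 were not analysed here.

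The samples were hearts of C57Bl/6 mice, with 4 arrays in each of 3 groups. Young mice were 6 months old and untreated, and aged mice were 30 to 32 months old and untreated. The mice of the spermidine group were also 30 to 32 months old and had received 3 mM spermidine, a natural polyamine, in their drinking water since month 4. The comparisons ask how these transcripts differ between young and aged hearts, and between aged hearts with and without spermidine.

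Autophagy encloses part of the cytoplasm in a new double membrane, the autophagosome, which then fuses with a lysosome for digestion. Small proteins of the ATG8 family (LC3 and GABARAP) are joined to the lipid of that membrane, and cargo receptors hold on to them while binding ubiquitin-marked cargo. Mitophagy is the same process aimed at mitochondria, on which heart muscle depends for its energy, and spermidine is known as an inducer of autophagy. The arrays measured transcript levels, and no protein or autophagic flux was measured in the data used here.

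Values are log2 of the quantile-normalized intensity plus 16, so a log2 difference understates the change of a dim probe. Each difference was tested with limma over all 20573 kept probes, and a call needs a Benjamini-Hochberg adjusted p below 0.05. An adjusted p is from that fit unless another setting or test is named beside it, and levels of different genes cannot be set against each other. The number of arrays limits the precision, and a p-value reflects the spread among these arrays, since the labels number the samples singly without stating that they are separate animals. Mean intensity per array was 259 to 313, 11689 to 12337 of 25697 probes per array lay above a background limit of 13.2 to 15.8 intensity units, and arrays of a group correlated at r = 0.969 to 0.995 across 10311 bright probes. All 9 measured cardiomyocyte markers were above the limit on all 12 arrays. Some arrays stood apart in other markers: 7 airway genes summed to 10221 intensity units on young array 4 and 3393 on spermidine array 3, against at most 20.75 on the aged arrays, and 5 atrial genes summed to 11868 on aged array 1, against 49498 to 56947 on the other aged arrays. Adipocyte and T and B cell markers were also high on young array 4, with 3767 and 582 units against at most 212 and 96.7 on the other young arrays, and on spermidine array 3, with 912 and 391 units.

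None of the 30 tested genes passed the threshold in any comparison. Between aged and young hearts the count was 0 of 30, where 0.797% of all probes passed. The smallest adjusted p was 0.0889, for the cargo receptor Sqstm1. At an unadjusted p below 0.05 there were 3 genes, Sqstm1 and Gabarapl1 higher and Map1lc3a lower in aged hearts, where 14.3% of all probes were below it. The arrays of aged and young hearts did not overlap for 1 gene, Sqstm1, and for 8.07% of all probes.

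Between spermidine-treated and untreated aged hearts the count past the threshold was also 0 of 30, where 0.00486% of all probes passed, which was 1 probe. The smallest adjusted p was 0.470, for Map1lc3a. At an unadjusted p below 0.05 there were 3 genes, Map1lc3a and Map1lc3b higher and Nbr1 lower with spermidine, against 9.45% of all probes. No gene had groups that did not overlap, a state found for 3.27% of all probes.

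Set against young hearts, the spermidine-treated hearts gave 0 of 30 past the threshold, where 0.16% of all probes passed, and a smallest adjusted p of 0.303. The 2 genes at an unadjusted p below 0.05, Sqstm1 and Gabarapl1, were both higher in the treated hearts, and both had groups that did not overlap. Over all probes those shares were 7.49% and 5.51%. The limma F test over the 3 groups called 0 of 30 (0.321% of all probes), with a smallest adjusted p of 0.159, and 3 genes lay at an unadjusted p below 0.05 (12.3% of all probes).

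The intervals bound how large a difference could be on the log2 scale used here, with 16 added. Between aged and young hearts, the 95% interval lay within 1.5-fold in either direction for 23 of 30 genes and within 2-fold for 29, with 59.7% and 93.6% of all probes within those bounds. With spermidine against aged hearts the counts were 24 and 29, against 63.2% and 95.5% of all probes. Atg3 was the exception to the 2-fold bound. The 30 genes and all probes are not alike in brightness: 25 of the genes were above the background limit on all 12 arrays, as were 10311 of 25697 probes. The median SE was 0.131 for the 30 genes and 0.164 over all probes. Gabarapl2, Atg4b, Atg4c and Tfeb, above that limit on 4 to 9 arrays, count as within 1.5-fold with age. The added 16 compresses such dim values, so their intervals do not bound the fold change of the transcript. With 4 added in place of 16, the Gabarapl2 difference with age went from -0.17 to -0.35. The bounds hold for the brightest probe of a gene. On further probes above the background limit on all 12 arrays, the interval with age ran beyond 1.5-fold for some genes. These were Ulk2 (to -0.83), Atg10 (to 0.78), Pink1 (to 0.73) and Wipi1 (to 0.67), and not Atg5 or Nbr1. Dimmer probes also ran beyond it, such as the second of Tfeb (to -0.74). The median absolute log2 difference of the 30 genes was 0.10 with age and 0.07 with spermidine, beside 0.16 and 0.14 over all probes, and the median signed difference was 0.01 in both, beside -0.01 and 0.005. With age 16 of the 30 genes were higher and 14 lower, and with spermidine 19 were higher and 11 lower than in aged hearts, where 48.2% and 50.9% of all probes were higher. These comparisons share the aged arrays, so their values are given side by side and not related to each other.

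**Figure D1:**
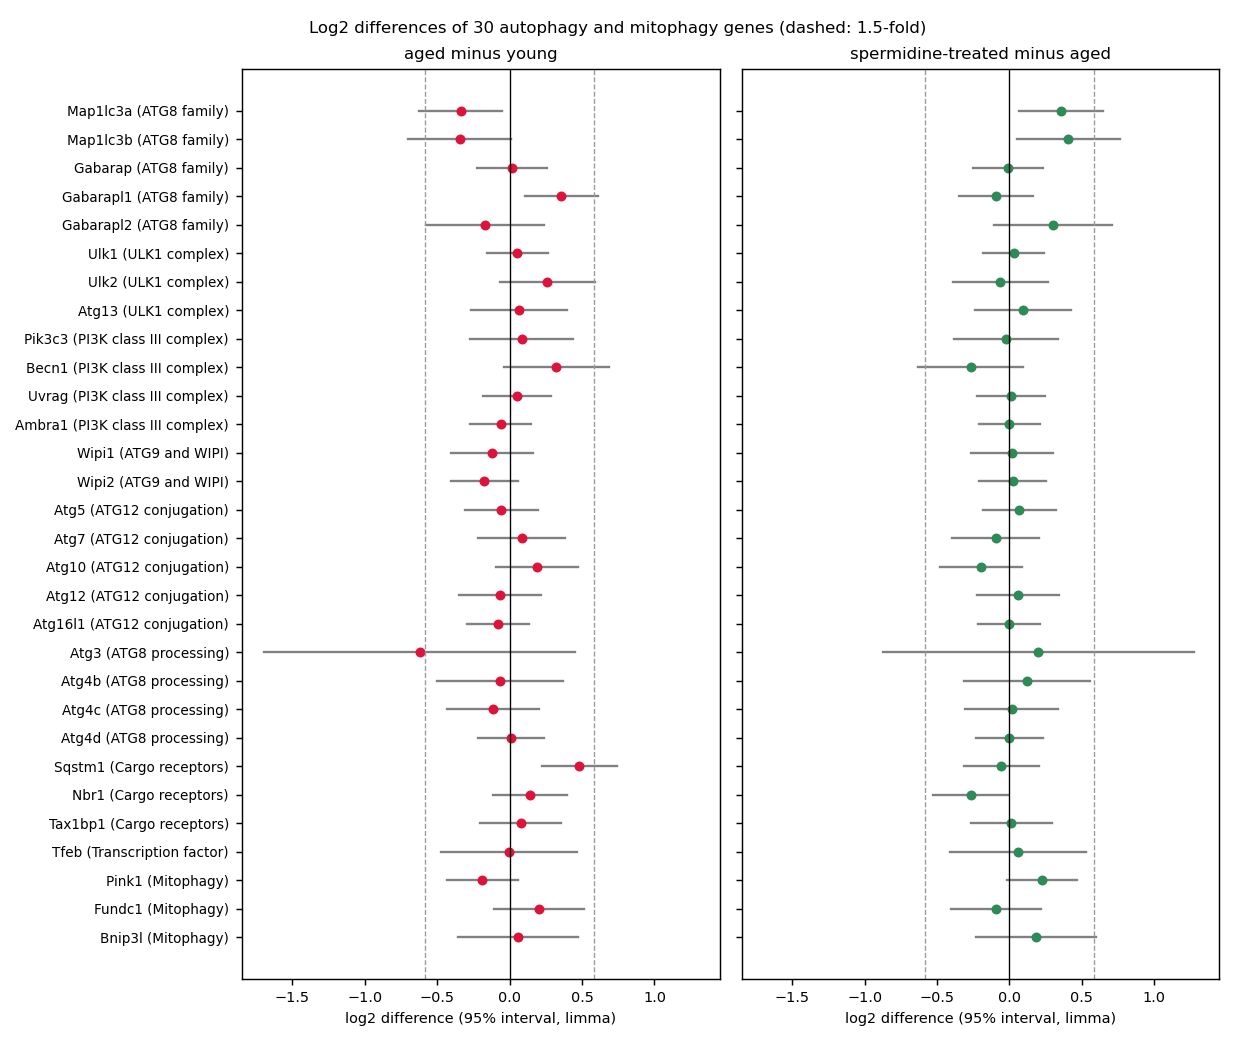
Log2 differences of the 30 tested genes (horizontal axis) in aged minus young hearts on the left and in spermidine-treated minus aged hearts on the right, with 95% intervals from limma and dashed lines at 1.5-fold. Points lie close to 0 for most genes, Sqstm1 reaches 0.48 with age, and the interval of Atg3 is the widest.

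The ATG8 family gave the largest differences with spermidine, and its members did not go one way. Map1lc3a, which encodes the LC3 protein LC3A, stood at 11.36, 11.28, 11.36 and 11.29 in young hearts and at 11.32, 10.66, 10.89 and 11.06 in aged hearts. The treated hearts gave 11.21, 11.31, 11.38 and 11.46. Aged arrays 2, 3 and 4 lay below every young and every treated array, while aged array 1 lay within both ranges. The difference was -0.34 with age (SE 0.13, adjusted p 0.264) and 0.36 with spermidine (adjusted p 0.470).

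Map1lc3b encodes LC3B, the form most used to mark autophagosomes. Its young arrays were at 8.29, 7.81, 8.27 and 8.27, its aged arrays at 8.02, 7.53, 7.57 and 8.13, and its treated arrays at 8.02, 8.34, 8.26 and 8.26. Aged arrays 2 and 3 were the lowest of the 12, and the groups overlapped. The aged mean was lower than the young one by a log2 difference of -0.35 (95% interval -0.70 to 0.01, adjusted p 0.359), and the treated mean was 0.41 above the aged one (0.05 to 0.76, adjusted p 0.495).

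Gabarapl1 encodes a GABARAP protein of the same family. It read 9.89, 10.10, 9.79 and 9.94 in young hearts, 10.23, 10.07, 10.35 and 10.49 in aged hearts, and 10.16, 10.28, 10.20 and 10.14 in treated hearts. All treated arrays lay above all young ones, and the aged arrays did so apart from aged array 2, which lay below young array 2. The aged mean was 0.36 above the young mean (SE 0.12, adjusted p 0.182), the treated mean 0.26 above it (adjusted p 0.647), and the treated mean differed from the aged one by -0.09 (adjusted p 0.833).

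The other members of the family were Gabarapl2 and Gabarap. Gabarapl2 was dim, with 4 of 12 arrays above the background limit. It read 4.60, 5.18, 4.91 and 4.70 in young hearts, 4.32, 5.19, 4.45 and 4.74 in aged hearts, and 4.81, 4.90, 5.24 and 4.95 in treated hearts, so that the groups overlapped throughout. Gabarap, the founding member of the GABARAP proteins, was bright and steady, with array values from 12.11 to 12.50 and a log2 difference of 0.02 with age and -0.01 with spermidine.

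The ULK1 kinase complex receives the starvation signal and starts autophagosome formation. Ulk1, its main kinase, lay between 9.58 and 9.87 on all 12 arrays, and its interval for aged minus young ran from -0.16 to 0.26. The related kinase gene Ulk2 read 7.87, 7.94, 8.08 and 7.63 in young hearts, 7.77, 8.36, 8.23 and 8.21 in aged hearts, and 8.35, 7.97, 7.93 and 8.06 in treated hearts. Aged arrays 2 to 4 were above every young array and aged array 1 was not. The log2 difference was 0.26 with age (adjusted p 0.459) and -0.06 with spermidine (adjusted p 0.923), and a second probe turned both directions, with -0.35 and 0.41. Atg13, the regulatory subunit, differed by 0.06 and 0.09. Rb1cc1, the scaffold of the complex also called FIP200, was not above the background limit on any of the 12 arrays and was not tested.

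The class III lipid kinase complex makes the phosphoinositide that marks the forming membrane. Becn1 encodes Beclin 1, its regulatory core. It read 7.42, 7.70, 7.01 and 7.00 in young hearts, 7.58, 7.74, 7.72 and 7.38 in aged hearts, and 7.58, 7.19, 7.41 and 7.17 in treated hearts. Aged arrays 2 and 3 lay above every young and treated array and the groups overlapped, with a log2 difference of 0.32 with age (adjusted p 0.405) and -0.27 with spermidine (adjusted p 0.637). A second probe of Becn1, above the background limit on 11 arrays, gave -0.03 with age and 0.02 with spermidine. Pik3c3, the catalytic subunit, differed by 0.08 and -0.03. Of the Beclin 1 partners, Uvrag differed by 0.05 and 0.01 and Ambra1 by -0.06 and 0.00. Of the PI3P-binding WIPI proteins, Wipi1 differed by -0.12 and 0.02.

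Wipi2 brings the ATG16L1 complex to the membrane. It stood at 7.58, 7.77, 7.65 and 7.78 in young hearts, 7.56, 7.42, 7.39 and 7.70 in aged hearts, and 7.51, 7.60, 7.58 and 7.47 in treated hearts. Aged array 4 alone among the aged arrays lay within the young range, and the aged and treated arrays overlapped. The log2 difference was -0.18 with age (adjusted p 0.487) and 0.02 with spermidine (adjusted p 0.962).

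The first conjugation system joins ATG12 to ATG5 and adds ATG16L1. Its 5 genes, Atg5, Atg7, Atg10, Atg12 and Atg16l1, differed by log2 values from -0.08 to 0.19 with age and from -0.20 to 0.07 with spermidine. Atg10, the E2-like enzyme for ATG12, gave both extremes that lay farthest from 0. It read 9.97, 10.11, 10.16 and 10.05 in young hearts, 10.43, 10.30, 10.34 and 9.98 in aged hearts, and 10.24, 10.16, 10.06 and 9.80 in treated hearts. Aged arrays 1 to 3 lay above every young and every treated array, and aged array 4 within both ranges. The adjusted p was 0.539 with age and 0.655 with spermidine. Atg7, the E1-like enzyme that serves both conjugation systems, differed by 0.08 and -0.10, and Atg5 by -0.06 and 0.07.

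The second system attaches ATG8 proteins to lipid with the E2-like enzyme ATG3, and ATG4 proteases prepare and release them. Atg3 read 7.11, 6.93, 7.26 and 7.32 in young hearts, 4.40, 7.55, 7.09 and 7.08 in aged hearts, and 6.69, 6.68, 6.53 and 7.04 in treated hearts. Aged array 1 lay far below the other 11 arrays and below the background limit. The log2 difference with age was -0.62 (SE 0.50, adjusted p 0.608) with that array and 0.09 without it, and the difference with spermidine was 0.20 with it and -0.51 without it. The difference of treated from young hearts was -0.42 (adjusted p 0.961), where aged array 1 enters the shared estimate of the spread. Fitted without aged array 1 its adjusted p was 0.465, and with the young and treated arrays alone 0.368, both at an unadjusted p below 0.05. Atg4b, Atg4c and Atg4d lay between -0.12 and 0.01 with age and between 0.00 and 0.12 with spermidine, and the first 2 of these were above the background limit on 9 and 4 arrays.

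Among the cargo receptors, Sqstm1 had the smallest p of all the genes described here. Sqstm1 encodes p62, which binds ubiquitin-marked cargo and LC3 and is itself degraded with the cargo. Its level was 11.59, 11.52, 11.49 and 11.36 in young hearts, 11.95, 11.90, 11.85 and 12.19 in aged hearts, and 12.02, 12.09, 11.78 and 11.77 in treated hearts. Every aged and every treated array lay above every young array, and the aged and treated arrays overlapped. In the intensities of the non-normalized table, the young arrays ranged from 2599 to 3110 and the aged ones from 3458 to 4897. The mean was 11.49 ± 0.10 in young, 11.97 ± 0.15 in aged and 11.91 ± 0.16 in treated hearts (SD, n = 4 each). The aged mean was 0.48 above the young one (95% interval 0.22 to 0.74, adjusted p 0.0889), and the treated mean 0.42 above it (0.17 to 0.68, adjusted p 0.303). Treated and aged hearts differed by -0.06 (-0.32 to 0.20, adjusted p 0.913).

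The call on Sqstm1 depended on the processing. Its adjusted p with age passed the threshold in 4 of 24 alternative settings, and it ranged from 0.0206 to 0.269 over all 24 while the difference stayed between 0.41 and 0.54. In those 4 settings 299 to 378 of all tested probes passed, beside 164 in the main fit. Without young array 4 and spermidine array 3, which held airway transcripts, the difference was 0.44 (adjusted p 0.224). In whole hearts, fewer cells of a type and less RNA per cell cannot be told apart. Macrophage markers were higher in aged than in young hearts. The summed intensity of 10 measured genes was 3127 to 4114 in young, 5329 to 6593 in aged and 3883 to 6215 in treated hearts. The young and treated arrays overlapped in this sum through young array 4, at 4114. The other young arrays, at most 3477, lay below every treated array. Of these 10 genes, 9 were higher in aged than in young hearts and 1 was called, beside 48.2% and 0.797% of all probes. All 10 had signal above the limit on at least 1 array. Among other markers, 1 of 8 endothelial, 2 of 9 cardiomyocyte and 5 of 7 T and B cell genes were higher in aged hearts. The part of these cell types in the Sqstm1 difference was not tested.

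Nbr1, a receptor of the same kind as p62, read 7.41, 7.42, 7.48 and 7.35 in young hearts, 7.32, 7.79, 7.64 and 7.46 in aged hearts, and 7.31, 7.18, 7.42 and 7.24 in treated hearts. Aged arrays 2 to 4 lay above every treated array, and aged array 1 lay within the treated range. The difference was 0.14 with age (adjusted p 0.636) and -0.27 with spermidine (95% interval -0.52 to -0.01, adjusted p 0.518). Tax1bp1, a receptor for ubiquitin-marked cargo as well, differed by 0.08 and 0.01.

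**Figure D2:**
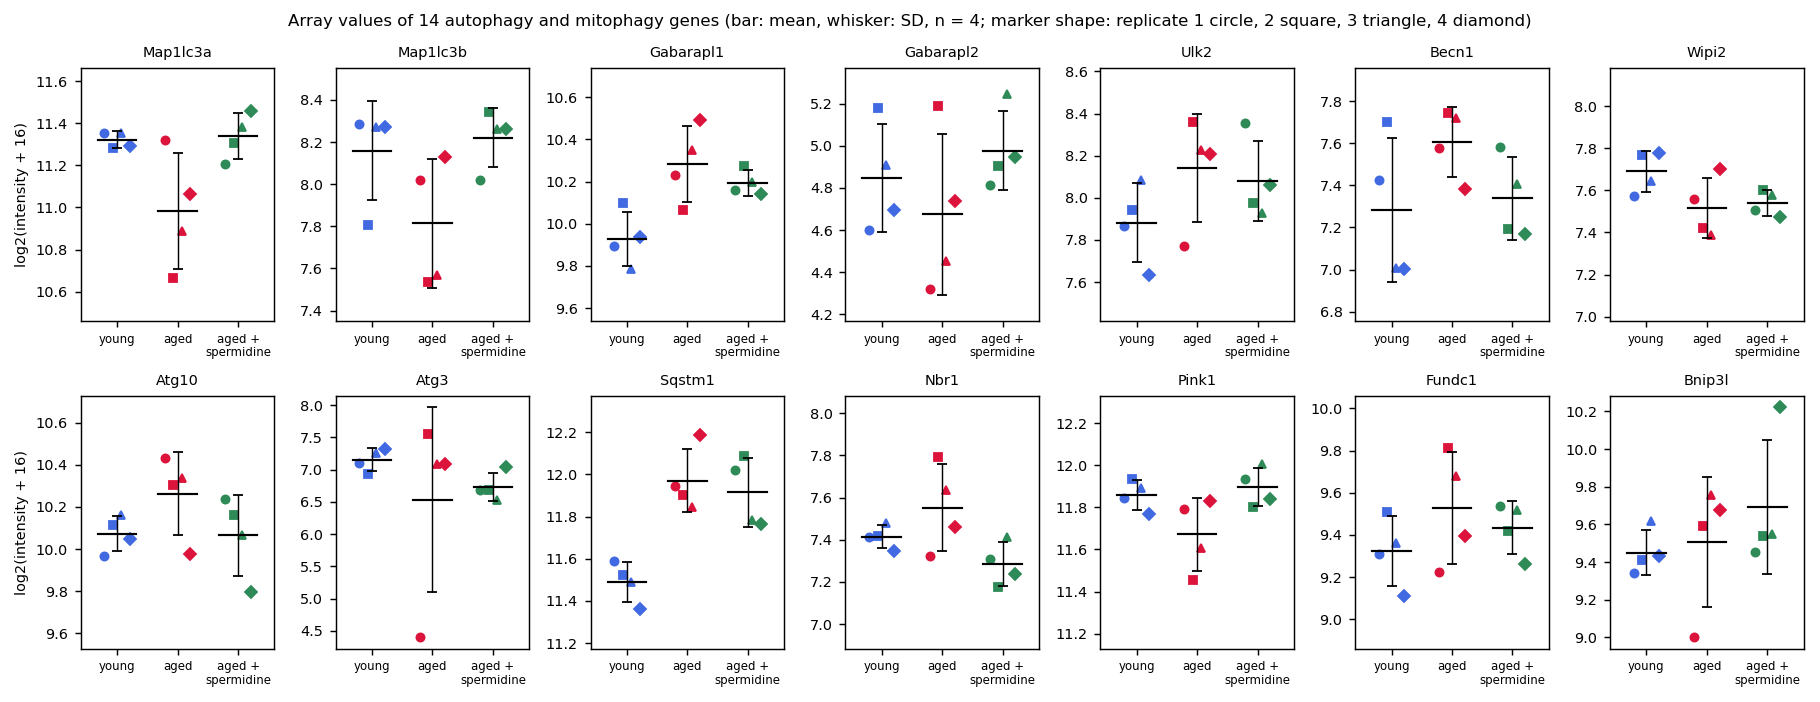
Log2(intensity + 16) of 14 genes on each of the 12 arrays (vertical axes, 1 scale per gene), with the mean as a bar and the SD as a whisker (n = 4 arrays per group), and marker shapes for the replicate number. The young and aged arrays of Sqstm1 do not overlap, those of Map1lc3a and Map1lc3b do, and aged array 1 of Atg3 lies at 4.40.

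TFEB is the transcription factor that switches on lysosomal and autophagy genes when it enters the nucleus. Its transcript was dim, above the background limit on 8 of 12 arrays, with array values from 4.72 to 5.58. The log2 difference was -0.01 with age (95% interval -0.47 to 0.46) and 0.06 with spermidine (-0.41 to 0.53). TFEB is known to bind an E-box element whose core letters are CACGTG, a motif that reads the same on both strands. These letters were searched in the promoters that RefSeq gives on GRCm38.p6, 300 bases from 250 before to 50 after a gene's start. The table held 32 promoters of 27 of the 35 genes, and 3 of these 32 held the motif, each of another gene, beside 7.15% of all 32851 promoters. The match says nothing on whether TFEB binds there.

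The 3 promoters with the motif are shown in 5′ to 3′ direction with the motif in capitals. They are followed by the promoter of Sqstm1, whose transcript had the smallest p and which has no match in this window. Any further promoter of the 3 genes, without the motif, is not shown. Atg3 lies at chr16:45158579-45158878 (+ strand) and has the motif 2 times, Atg5 at chr10:44268089-44268388 (+ strand), Atg7 at chr6:114670846-114671145 (+ strand) and Sqstm1 at chr11:50210771-50211070 (- strand).
Atg3: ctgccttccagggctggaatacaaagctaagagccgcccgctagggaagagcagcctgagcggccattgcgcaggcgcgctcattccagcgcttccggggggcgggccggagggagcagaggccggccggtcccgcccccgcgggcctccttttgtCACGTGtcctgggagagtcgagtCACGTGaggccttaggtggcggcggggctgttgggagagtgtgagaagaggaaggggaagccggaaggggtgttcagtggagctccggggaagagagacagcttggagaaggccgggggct
Atg5: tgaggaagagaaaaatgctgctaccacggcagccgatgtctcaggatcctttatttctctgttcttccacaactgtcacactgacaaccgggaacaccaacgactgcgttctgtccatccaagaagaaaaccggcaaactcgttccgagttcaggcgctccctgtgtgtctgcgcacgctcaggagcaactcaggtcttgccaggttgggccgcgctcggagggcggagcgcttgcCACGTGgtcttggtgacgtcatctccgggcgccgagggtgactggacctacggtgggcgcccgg
Atg7: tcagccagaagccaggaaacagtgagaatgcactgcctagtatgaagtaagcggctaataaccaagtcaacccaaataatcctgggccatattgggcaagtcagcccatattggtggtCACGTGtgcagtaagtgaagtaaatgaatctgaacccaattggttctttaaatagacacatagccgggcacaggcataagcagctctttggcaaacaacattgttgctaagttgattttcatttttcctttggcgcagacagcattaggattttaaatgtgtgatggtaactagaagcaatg
Sqstm1: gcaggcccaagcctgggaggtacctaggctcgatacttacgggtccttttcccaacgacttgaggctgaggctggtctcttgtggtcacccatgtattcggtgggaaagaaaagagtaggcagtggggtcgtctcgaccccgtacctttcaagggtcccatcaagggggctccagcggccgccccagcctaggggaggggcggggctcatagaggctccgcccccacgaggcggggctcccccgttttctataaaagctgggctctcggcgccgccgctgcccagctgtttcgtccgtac
The transcripts of the 3 genes with the motif gave no call: the differences with age were -0.62 for Atg3 with aged array 1 included, -0.06 for Atg5 and 0.08 for Atg7.

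Mitophagy was represented by Pink1, Fundc1 and Bnip3l. PINK1 is a kinase that accumulates on damaged mitochondria and marks them with phosphorylated ubiquitin. Its transcript read 11.84, 11.94, 11.89 and 11.77 in young hearts, 11.79, 11.46, 11.60 and 11.83 in aged hearts, and 11.94, 11.80, 12.00 and 11.84 in treated hearts. Aged arrays 2 and 3 were the lowest of the 12, and aged array 4 overlapped both other groups. The difference was -0.19 with age (95% interval -0.43 to 0.06, adjusted p 0.472) and 0.22 with spermidine (-0.02 to 0.47, adjusted p 0.550). A second probe turned both directions, with 0.33 with age and -0.41 with spermidine.

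Fundc1 and Bnip3l (also called NIX) encode receptors in the outer mitochondrial membrane that bind LC3 directly. Fundc1 read 9.31, 9.51, 9.36 and 9.11 in young hearts, 9.22, 9.81, 9.68 and 9.40 in aged hearts, and 9.54, 9.42, 9.52 and 9.26 in treated hearts. Aged arrays 2 and 3 were the highest of the 12 and the groups overlapped, with differences of 0.20 (adjusted p 0.550) and -0.09 (adjusted p 0.867). Bnip3l read 9.34, 9.41, 9.62 and 9.43 in young hearts, 9.00, 9.59, 9.75 and 9.68 in aged hearts, and 9.45, 9.54, 9.55 and 10.22 in treated hearts. Its lowest value was on aged array 1 and its highest on spermidine array 4. The difference was 0.06 with age (adjusted p 0.926) and 0.18 with spermidine (adjusted p 0.788). Single arrays moved both: the difference with age was 0.23 without aged array 1 and -0.03 without aged array 3, and that with spermidine was 0.02 without aged array 1 and 0.01 without spermidine array 4.

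**Figure D3:**
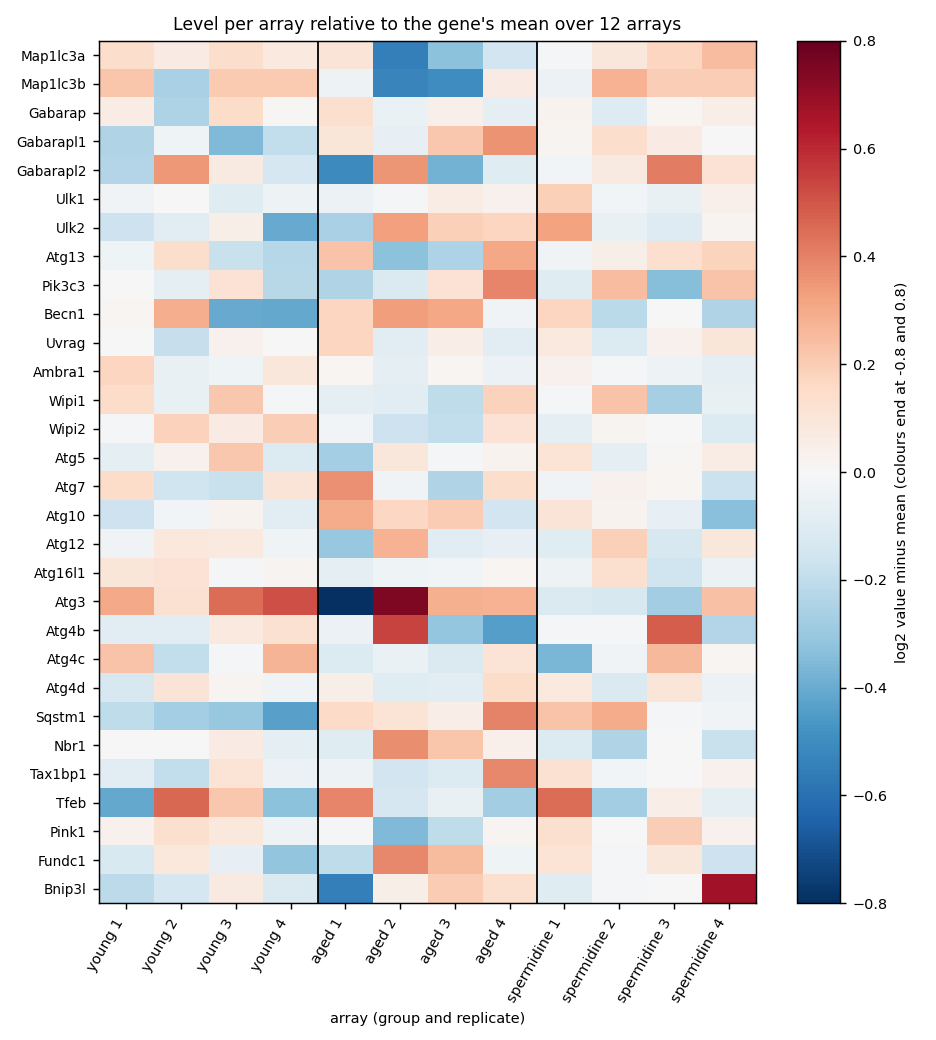
Log2 value of each of the 30 genes (rows) on each of the 12 arrays (columns) minus the gene's mean over the 12 arrays, in colour from -0.8 to 0.8. Aged arrays 2 and 3 are blue for Map1lc3a, Map1lc3b and Pink1 and red for Becn1, Nbr1 and Fundc1, and no array is one colour throughout.

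The heat map of all genes showed differences inside the aged group. Aged arrays 2 and 3 were the lowest of the 12 for Map1lc3a, Map1lc3b, Pink1 and Wipi2 and the highest for Becn1, Nbr1 and Fundc1, a set of genes picked after their values were seen. Without aged array 2 the difference with age was -0.23 for Map1lc3a, -0.25 for Map1lc3b and -0.12 for Pink1. Counted over the whole machinery, between 11 and 20 of the 30 genes lay above their own mean on each array, with the highest count on young array 3.

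A gene can have several probes, which may read different transcript ends. Of the 31 measured genes 16 had more than 1 probe, and 11 of them had at least 2 probes above the background limit on all 12 arrays. In those 11 genes the brightest probe and another one gave opposite signs in 10 of 24 comparisons, 4 with age and 6 with spermidine. This comparison was added after the values had been seen. The within-array ratio of the 2 probes was compared between groups with an exact permutation test (two-sided, 4 arrays against 4), in which no p can be smaller than 0.0286. That p was reached in 3 of 24 comparisons, with an adjusted p of 0.196. At this floor an adjusted p below 0.05 would need most of the 24 comparisons to reach it, so that the adjusted values decide little.

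Map1lc3a was one of these genes. Its second probe read 8.74, 8.82, 8.71 and 8.59 in young hearts, 9.06, 8.84, 8.85 and 8.62 in aged hearts, and 8.62, 8.74, 8.78 and 8.67 in treated hearts. The aged arrays were not below the others there, and the difference was 0.13 with age and -0.14 with spermidine, opposite in sign to -0.34 and 0.36 of the brightest probe. The ratio of the 2 probes differed at exact p = 0.0286 in both comparisons (adjusted p 0.196). Pink1 ran on its second probe from 8.70 to 9.64 in young hearts, from 9.23 to 9.71 in aged hearts and from 8.90 to 9.23 in treated hearts. Every treated array lay below every aged array there, the highest of them only just, and the adjusted p was 0.437 with age and 0.519 with spermidine. The ratio to the brightest probe differed with spermidine (exact p = 0.0286, adjusted p 0.196).

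Other pairs of probes went together. The second probe of Nbr1 gave 0.26 with age and -0.26 with spermidine, the same signs as the first. Atg10 gave 0.43 and -0.42 on its second probe (adjusted p 0.226 and 0.474), and Fundc1 gave 0.24 and -0.18. Ulk2 did not, as given above. Sqstm1, Map1lc3b and Gabarapl1 each had 1 probe.

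**Figure D4:**
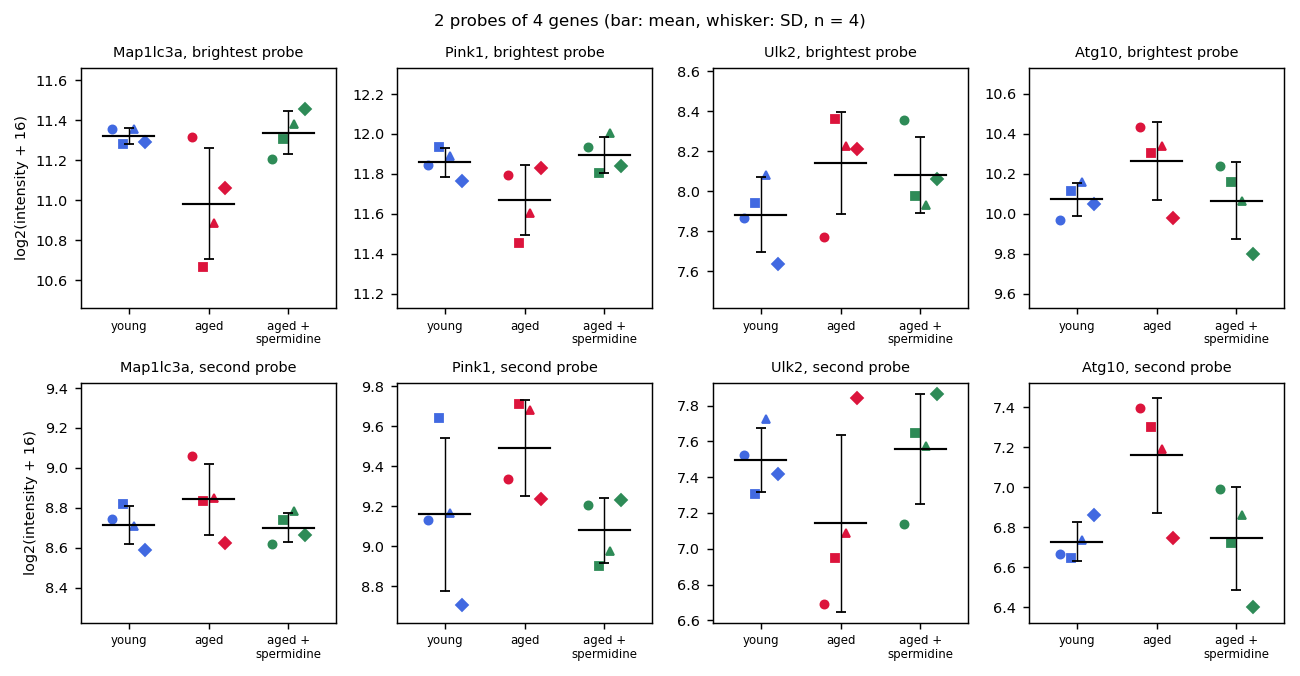
Log2(intensity + 16) on each array for the brightest probe (upper row) and the second probe (lower row) of Map1lc3a, Pink1, Ulk2 and Atg10, with the mean as a bar and the SD as a whisker (n = 4 arrays per group). The aged group is lowest on the upper Map1lc3a and Pink1 panels and highest on their lower panels, while both Atg10 panels have the highest mean in aged hearts.

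Around this machinery, 6 further gene lists were read: 134 genes listed, of which 116 were tested, each on its brightest probe. With age 2 of the 116 genes passed the threshold, both higher in aged hearts, beside 0.797% of all probes, and 11 lay at an unadjusted p below 0.05, beside 14.3%. With spermidine against aged hearts 0 of 116 passed in limma (0.00486% of all probes), with 7 at an unadjusted p below 0.05 (9.45%). In treated against young hearts the counts were 0 (0.16%) and 3 (7.49%).

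Rragd rose with age. It encodes RagD, a GTPase that brings the growth kinase mTORC1 to the lysosome. It read 7.87, 7.93, 8.04 and 7.82 in young hearts, 8.49, 8.45, 8.53 and 8.47 in aged hearts, and 7.97, 8.23, 8.07 and 8.15 in treated hearts. All aged arrays lay above all arrays of both other groups, which overlapped each other. The difference was 0.57 with age (SE 0.10, adjusted p 0.0255) and -0.38 with spermidine (SE 0.10, adjusted p 0.431). The call was lost without each of young arrays 1 to 4 (adjusted p 0.0955, 0.0737, 0.0626 and 0.0617) and without each of aged arrays 1 to 3 (0.0534, 0.0531 and 0.0584), and without the 2 arrays with airway transcripts it was 0.0992.

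Nqo1 also rose with age. It encodes a quinone reductase and is a known target of NRF2, the factor that p62 can release from its inhibitor KEAP1. It read 8.72, 8.80, 8.81 and 8.83 in young hearts, 9.85, 9.57, 9.42 and 9.36 in aged hearts, and 9.54, 9.15, 9.18 and 9.39 in treated hearts. Young arrays lay below all others, and aged and treated arrays overlapped. The aged mean was 0.76 above the young one (SE 0.13, adjusted p 0.0217), and the treated mean 0.52 above it (adjusted p 0.229). This call was lost without young array 1, 2 or 3 (adjusted p 0.0838, 0.0662 and 0.0705), without aged array 2 (0.0531), and without the 2 arrays with airway transcripts (0.0629). On their brightest probes the other genes of the KEAP1 and NRF2 list gave no call, and 7 of its 9 genes were higher in aged hearts, with a median log2 difference of 0.19, beside 48.2% of all probes and a median of -0.01.

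Srxn1, an NRF2 target that repairs oxidised peroxiredoxins, gave different answers on its probes. Its brightest probe differed by 0.21 with age (adjusted p 0.502). A second probe, above the background limit on all 12 arrays, read 6.71, 6.75, 6.80 and 6.82 in young hearts, 7.65, 7.47, 7.29 and 7.63 in aged hearts, and 7.51, 7.09, 7.43 and 7.37 in treated hearts. Every young array lay below every aged and every treated array on that probe, and aged and treated arrays overlapped. It rose with age by 0.74 (SE 0.12, adjusted p 0.0172), and its remaining probe differed by 0.25 (adjusted p 0.610). The call of the second probe was lost without young array 1, 2 or 3 (adjusted p 0.0729, 0.0595 and 0.0636) and without the arrays with airway transcripts (0.0606), or these and aged array 1 (0.108). Among all 61 further kept probes of the 6 lists, from 36 genes, it was the 1 probe past the threshold with age (0.797% of all probes), and 0 passed in limma in the other comparisons; this count was added after the values had been seen. The macrophage markers were higher in the same aged arrays by the sums given for Sqstm1, and their part in Rragd, Nqo1 and Srxn1 was not tested.

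Lysosome genes gave 0 of 25 in either direction in each comparison with limma. Ctsa, a lysosomal carboxypeptidase that also protects other lysosomal enzymes, read 7.19, 7.38, 7.19 and 7.30 in young hearts, 7.84, 7.98, 7.86 and 7.41 in aged hearts, and 7.32, 7.36, 7.14 and 7.03 in treated hearts. All aged arrays lay above all others, by a log2 difference of 0.51 over young (adjusted p 0.110) and -0.56 for treated minus aged hearts (adjusted p 0.431). Without aged array 4 those became 0.63 (adjusted p 0.0202) and -0.68 (adjusted p 0.0490), which pass. In that setting 559 of 20573 probes passed with age and 49 with spermidine, beside 164 and 1 with all arrays. The Ctsa difference with age also passed with array weights (adjusted p 0.0354) and with offset 50 (0.0464), where 372 and 378 probes passed. The other probes of Ctsa gave -0.09, -0.35 and 0.23 with age, and 0.02, 0.42 and -0.19 with spermidine against aged hearts. The median difference of the 25 genes was -0.03 with age and 0.06 with spermidine.

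Of the further mitophagy and mitochondrial quality genes, 0 of 18 passed in limma, and 4 with age and 2 with spermidine were at an unadjusted p below 0.05, beside 14.3% and 9.45% of all probes. Mul1, a ubiquitin ligase of the outer mitochondrial membrane, read 8.22, 7.86, 8.20 and 8.30 in young hearts, 7.73, 5.55, 6.69 and 7.42 in aged hearts, and 7.65, 8.26, 8.15 and 7.40 in treated hearts. All aged arrays were below all young ones and spread widely, with a difference of -1.30 (SE 0.37, adjusted p 0.126; 0.0360 with array weights), and the difference with spermidine was 1.01 (adjusted p 0.465). Mfn1, which fuses mitochondrial outer membranes, differed by -0.32 with age and 0.33 with spermidine (adjusted p 0.222 and 0.457). Its second probe gave -0.35 and 0.28. Tomm7, a subunit of the mitochondrial import complex, differed by -0.34 with age (adjusted p 0.282).

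The remaining lists held few low p-values. Of 21 other autophagosome genes, 0 passed in limma, with Trp53inp1 at -0.40 with age (adjusted p 0.258) and Nrbf2, a subunit of the class III lipid kinase complex, at -0.40 with spermidine (adjusted p 0.457). Of 14 genes for fusion of autophagosomes with lysosomes, 0 passed. Vps11, of the tethering complex HOPS, stood at -0.28 with age (adjusted p 0.251), and none of the 14 had an unadjusted p below 0.05 with spermidine. Of the 14, 12 were higher with spermidine than in aged hearts, with a median difference of 0.08, beside 50.9% of all probes and a median of 0.005. That count rests on the brightest probes. Rab7, at 0.19 on its brightest probe, gave -0.53 and -0.37 on its other probes, while Vamp8 gave 0.10 and 0.20. Among 29 tested genes of mTORC1, AMPK and transcriptional control, Rragd alone passed. Tfe3, a relative of Tfeb, gave -0.41 with age (adjusted p 0.258).

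**Figure D5:**
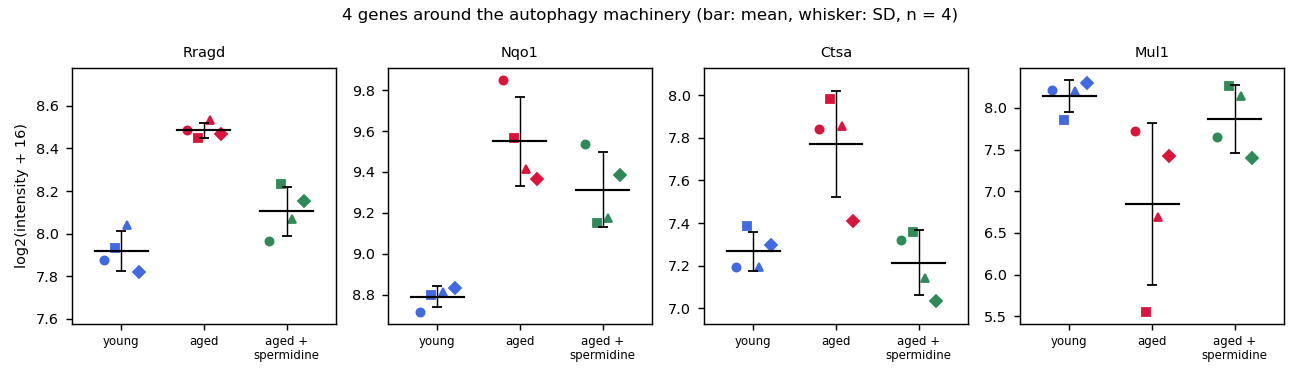
Log2(intensity + 16) of Rragd, Nqo1, Ctsa and Mul1 on each array (vertical axes, 1 scale per gene), with the mean as a bar and the SD as a whisker (n = 4 arrays per group). The aged arrays of Rragd lie between 8.45 and 8.53, above all arrays of the other groups, and the young arrays of Nqo1 lie below all others.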

How the data were processed

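Total RNA of 12 heart samples was labelled with biotin and hybridised to Illumina bead arrays, per the labels. The deposited tables hold linear intensity in whole numbers. Of the non-normalized values 24.1% lay below 0, so a background had been subtracted. How the authors normalized the intensity of the other deposited table is not given in the sources used here, and it served as an alternative.

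In R 4.3.3, intensities were quantile-normalized, 16 was added and log2 taken. A probe was kept if at least 4 of the 12 arrays held it above their 25th percentile, which left 20573 probes (80.1%). The background limit was 3 SDs of the values below 0, mirrored about 0. limma 3.58.1 (lmFit, eBayes) fitted 3 group means over 12 arrays, leaving 9 residual degrees of freedom; tests were two-sided with Benjamini-Hochberg adjustment over all kept probes, and the procedure was tested on simulated data. Names came from the platform annotation: 23978 probes had 1 symbol, 0 had several and 1719 had none here.

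The genes and lists were chosen with earlier results of these data known. The 14 genes shown on every array are those with the smallest unadjusted p over the 3 comparisons. Genes named from the other lists are those past the threshold or among the 3 smallest p per list with age and with spermidine. Same-numbered arrays of different groups did not deviate together (12 correlations of -0.271 to 0.212, 3 of them over 0.1), so replicate numbers were not used as pairs.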

Additional observations from a re-analysis of the deposited data

Results flagged for a closer look

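Among the 30 tested genes, 4 of 90 groups of 4 arrays (4.44%) held an array far from the other 3, and chance alone marks about 1 group in 20. Map1lc3b stood at 7.81 on young array 2, where the other young arrays were at 8.27 to 8.29. Uvrag stood at 7.98 on the same array, beside 8.16 to 8.20 on the others. Atg3 was at 4.40 on aged array 1, beside 7.08 to 7.55 on the other aged arrays, which were above the background limit while it was not. Bnip3l was at 10.22 on spermidine array 4, beside 9.45 to 9.55.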

How the results depend on the processing

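Each result was computed again under 24 alternatives: 12 that leave out 1 array each and 12 that change the table, scaling, offset, filter, samples, weights, variance trend or replicate block. The count of autophagy genes past the threshold stayed at 0 with spermidine, against aged and against young hearts, under all 24. With age it was 1 (Sqstm1) in the authors' deposited normalized table (adjusted p 0.0348) and with offset 50 (0.0241). It was also 1 among probes above the background limit on at least 4 arrays (0.0402) and with an intensity trend (0.0206). Over all probes, 299 of 19919, 378 of 20573, 331 of 12659 and 320 of 20573 passed with age there, beside 164 of 20573 in the main fit. The F test gave 1 with offset 50 and with the trend, where 176 and 170 of all probes passed, beside 66 in the main fit. The count of pathway genes with age, 2, became 1 (Nqo1) with only the groups compared, 1 (Nqo1) with the replicate block, 4 with array weights (with Ctsa and Mul1), 3 with offset 50 (with Ctsa), 0 without the 2 arrays with airway transcripts and 0 without these and aged array 1. Over all 20573 probes those settings gave 97, 96, 372, 378, 70 and 50 calls, in the same order, beside 164 in the main fit. Leaving out 1 array each gave 0 to 3 with age and 0 to 1 with spermidine against aged hearts. The 1 was Ctsa without aged array 4, where 559 of all 20573 probes passed with age and 49 with spermidine. The median difference of treated from young hearts became -0.00799 without the 2 or 3 arrays, and that of aged from young hearts ran from -0.0374 to 0.0359 with 1 array left out. Map1lc3a reversed on its second probe, to 0.13 with age and -0.14 with spermidine; the cause was not tested. The replicate block changed no other call. limma's neqc was not run, since the table holds neither detection p-values nor control probes. Signal over background limits Gabarapl2, Atg4b, Atg4c and Tfeb, which were above the limit on 4 to 9 arrays, and Rb1cc1, above it on none.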
